A study of Mus musculus with 2 samples.

Results

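DNA repair and damage checkpoint genes were read from 2 two-colour oligonucleotide arrays that set EB5 mouse embryonic stem (ES) cells with Klf4 siRNA against a reference RNA pool. The genes were chosen by symbol, from families such as Rad, Xrcc, Fanc, Msh and Ercc and from named kinases, ligases and glycosylases, and 57 of 10146 genes with a named probe belonged to them, each with 1 probe. A further 25 symbols of the same families, among them Atr, Fancd2, Msh3, Lig4 and Xpc, had no probe under their name and are not analysed here. The tested RNA came from EB5 ES cells grown without feeders, transfected with Klf4 siRNA and the pCAGEGFP-IP plasmid, cultured for 24 h and then selected for 24 h in puromycin (siKlf4 ES cells, Cy3, n = 2 arrays). The RNA they were compared with was Universal Mouse Reference RNA (Cy5), an equal pool from 11 cultured cell lines of embryo, embryo fibroblast, kidney, liver, macrophage, B and T lymphocyte, mammary, muscle, skin and testis origin. No ES cells without Klf4 siRNA were analysed here, so each value sets siKlf4 ES cells against a mixture of other cultured lines and carries no estimate of what the siRNA did. The labels number the arrays 1 and 2 without saying whether they are separate cultures, so the spread between them, and the p-values that rest on it, may be technical.

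A cell repairs its DNA by several routes, each with its own damage sensors and enzymes. Mismatch repair corrects errors of replication, base excision removes single damaged bases and repairs nicks, and nucleotide excision removes bulky lesions. Breaks of both strands are rejoined directly by end joining or copied from a sister chromatid by homologous recombination, and the Fanconi anaemia proteins open crosslinks between strands. Checkpoint kinases hold the cell cycle while damage is present. Mouse ES cells cycle fast, with most cells in S phase, and are known for active mismatch repair and recombination.

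Each array gene probe is 60 bases long, and the first 30 bases are given here, 5′ to 3′, for the genes on which the results turn, since the array reads a gene only through this sequence. They are the deposited probes for the gene with the highest ratio, for the leading base excision, end joining, checkpoint and recombination genes, and for Neil3, the only gene called lower. The letters are all in lower case because no part of a probe is singled out.
Msh6: tagactacattggaagctgagctgactttt
Ung: acaaggtaggcaggtacagtaatttctttt
Parp1: cgaatctccttaggaagggttttatacaga
Xrcc5: aaattgttgttcaggatggagttactctga
Chek1: ggggaaaggatggatcaaattcattaggta
Chek2: ccatcacagatacacgattaaaaaacgtgg
Exo1: ggaaaaactttgggtttaaaaaagattctg
Neil3: caacagaacttaaaagttacaactctggac

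Klf4 itself, against which the siRNA was directed, stood at a log2 ratio of 0.43 and 0.59 on the arrays (siKlf4 ES cells over reference). The mean of 0.51 was inside the range that control spots spanned while the second array was outside it, and without untreated ES cells the value does not check the siRNA. Of 9 measured ES cell markers, 8 were called higher in the siKlf4 ES cells, among them Sox2 (5.69) and Pou5f1 (2.86). Esrrb did not clear the control spots in either channel, and Nanog had no named probe. All signals are given in intensity units above local background, before normalisation, and all ratios after it. Gene probes had median signals of 308 and 355 units in the siKlf4 ES cells and 246 and 264 in the reference. Negative control spots, designed to match no mouse RNA, had medians of 129 and 138 units in the siKlf4 ES cells and 28.5 and 32.3 in the reference. A probe counted as dim where its signal was not above the 95th percentile of the control spots, at 155 and 178 units in the siKlf4 ES cells and 40.9 and 58.4 in the reference. A gene was called where limma's two-sided test gave an adjusted p under 0.05, both arrays had the same sign, and the mean log2 ratio was beyond that of every negative control spot, 0.52 in size. Of 161 control spots, 115 passed the test on p and sign alone, which is why the limit on size was used.

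Of the 57 repair and checkpoint genes, 18 were called higher in the siKlf4 ES cells, 1 was called lower and 38 were not called. Over all 21028 probes, 12.1% were called higher and 10.8% lower, and over the 10134 named genes 15.8% were higher and 14.2% lower. The 57 are named genes, so the named-gene shares are their closer base, while the counts below stand beside all probes. At 2-fold or more, 14 of the 57 were higher, against 5.08% of all probes and 682 of the 10134 named genes. None of the 57 was 2-fold lower, against 5.19% of all probes and 757 of the 10134 named genes. The lowest was Neil3 at -0.81, dim in the siKlf4 ES cells, which ran from -1.24 to -0.18 under other ways of processing. The median log2 ratio of the 57 was 0.22, against -0.01 for all probes, and it was 0.36 among the 52 genes that were not dim in either channel on either array. Without array 1 the median was 0.34, and without array 2 it was 0.26. All 18 genes called higher were above the reference on both arrays, with single-array log2 ratios of 0.63 to 2.60, an SD of at most 0.18 and an adjusted p of at most 0.000111. The nearest genes on either side of the limit were Ercc2 at 0.65, called, and Ogg1 at 0.51, not called.

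**Figure D1:**
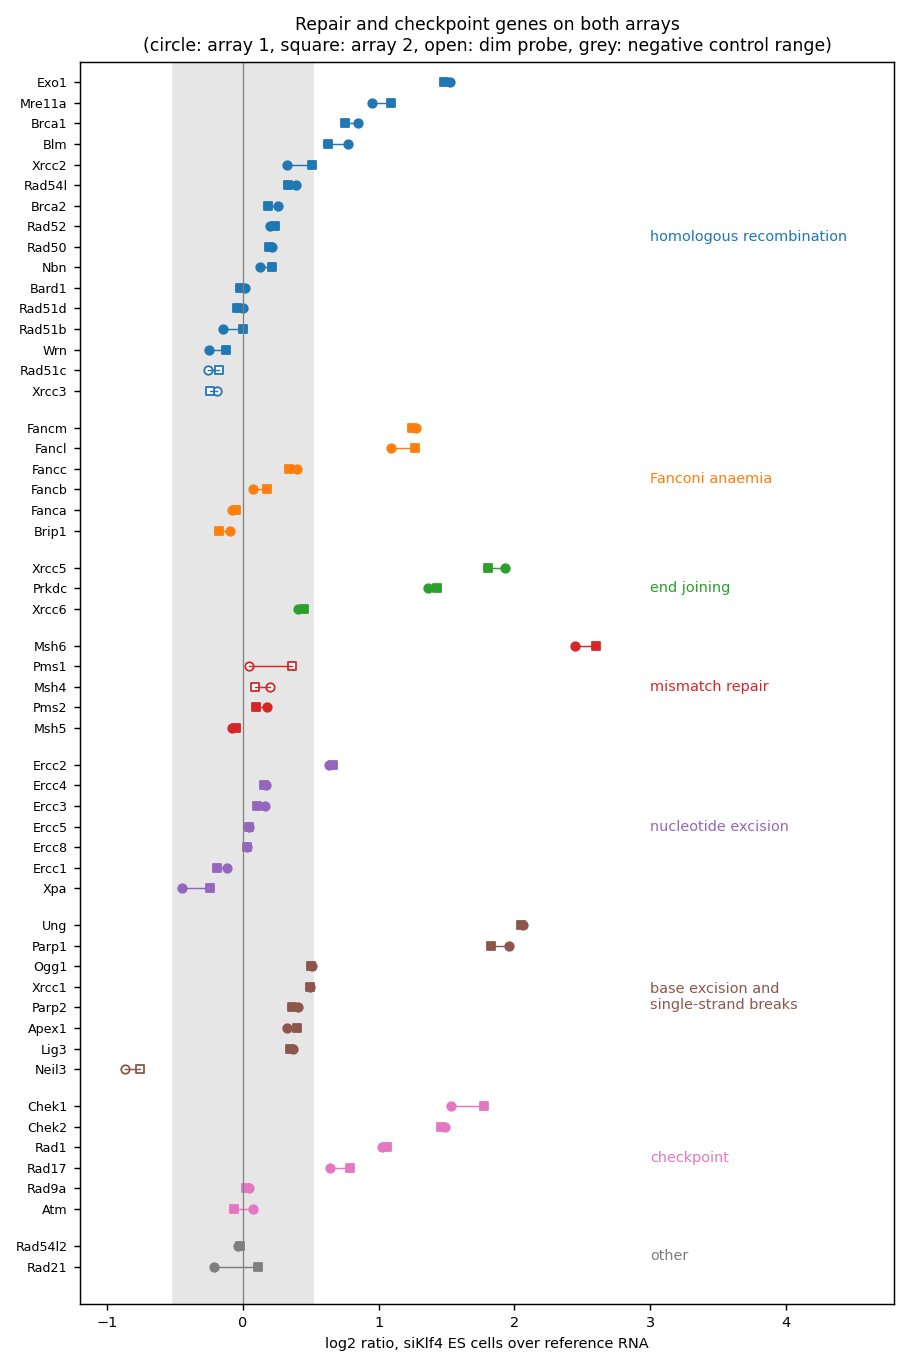
Log2 ratios of siKlf4 ES cells over reference RNA (x axis) for 53 of the 57 genes (y axis), grouped by repair route, with array 1 as circles and array 2 as squares. Open symbols are dim probes and the grey band spans the log2 ratios of control spots, 0.52 in size at most; Msh6 lies farthest right at 2.52 and Neil3 farthest left at -0.81.

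Mismatch repair held the highest ratio of all 57 genes, and 2 of its 7 measured genes were called higher, beside 12.1% of all probes. The routes are small, and none was tested as a set. Msh6 encodes a protein that recognises mispaired bases. Msh6 gave 23610 and 30516 intensity units in the siKlf4 ES cells, against 4543 and 4474 in the reference. Its log2 ratio was 2.52 ± 0.11 (SD, n = 2), a 5.75-fold difference (limma, adjusted p = 1.52e-06). Before normalisation each siKlf4 ES cell signal lay far above both reference signals, with no overlap. Such a lack of overlap, here and below, is description only, because the channels have different baselines. Neil3 signals did not overlap either, at 121 and 128 units against 85.9 and 79.2 in the reference, yet its ratio was -0.81. Pms2, which acts in the MutL step after recognition, gave 479 and 556 units in the siKlf4 ES cells, against 393 and 437 in the reference, and had a ratio of 0.14 ± 0.054. Msh5, which acts with Msh4 in meiotic recombination, stood at -0.06. Msh4 was dim in both channels and has no usable ratio. Pms1 was dim in the siKlf4 ES cells on both arrays and in the reference on array 2, at 44.9 units.

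Base excision and single-strand break repair held a pair of high genes and a set of smaller positive ratios inside the control spots' range. Of 8 measured genes, 2 were called higher and 1 lower, beside 12.1% and 10.8% of all probes. Ung, the glycosylase that removes uracil from DNA, gave 5193 and 6355 units in the siKlf4 ES cells, against 1367 and 1417 in the reference (log2 ratio 2.05 ± 0.0097, 4.15-fold, adjusted p = 1.22e-06). Parp1, the polymerase that marks strand breaks with poly(ADP-ribose), gave 2724 and 3115 units in the siKlf4 ES cells, against 773 and 830 in the reference (1.90 ± 0.094, 3.72-fold, adjusted p = 2.74e-06). For neither gene did siKlf4 ES cell and reference signals overlap before normalisation. A further 5 genes had ratios of one sign and similar size without reaching the limit: the 8-oxoguanine glycosylase Ogg1 (0.51 ± 0.0056), the scaffold Xrcc1 (0.49 ± 0.00043), the second break sensor Parp2 (0.38 ± 0.032), the abasic site endonuclease Apex1 (0.36 ± 0.053) and the ligase Lig3 (0.36 ± 0.016). Parp1 and Parp2, which are partly redundant sensors of the same lesion, thus had log2 ratios of 1.90 and 0.38. Neil3, a glycosylase for oxidised bases in single-stranded DNA, gave 121 and 128 units in the siKlf4 ES cells, against 85.9 and 79.2 in the reference. Its siKlf4 ES cell signal was under the control limit on both arrays, so the fitted ratio of -0.81 ± 0.079 is no measured level. With the signal raised to that limit the fitted bound was 1.18-fold toward the reference, a size inside the range of the control spots.

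End joining had 3 measured genes, of which 2 were called higher, beside 12.1% of all probes. Xrcc5 and Xrcc6 encode Ku80 and Ku70, which form the ring that grips a broken end, and Prkdc encodes the kinase that the ring recruits. Xrcc5 gave 2578 and 2713 units in the siKlf4 ES cells, against 748 and 736 in the reference, a log2 ratio of 1.87 ± 0.089 or 3.65-fold (limma, adjusted p = 2.72e-06). Prkdc gave 681 and 757 units in the siKlf4 ES cells, against 236 and 221 in the reference, a ratio of 1.40 ± 0.047 or 2.64-fold (adjusted p = 4.08e-06). Before normalisation the signals of both genes were separate between siKlf4 ES cells and reference. Xrcc6 gave 485 and 576 units in the siKlf4 ES cells, against 331 and 345 in the reference, and at 0.43 ± 0.034 it did not reach the limit. The partners of the Ku ring therefore differed in their ratios on both arrays, 1.93 and 1.80 for Xrcc5 against 0.40 and 0.45 for Xrcc6, a difference that was not tested.

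Homologous recombination was the largest route, with 5 of 17 measured genes called higher, beside 12.1% of all probes, and 12 not called. Exo1, a nuclease that resects broken ends and also serves mismatch repair, gave 844 and 1060 units in the siKlf4 ES cells, against 277 and 329 in the reference (log2 ratio 1.50 ± 0.026, 2.84-fold, adjusted p = 2.8e-06). Mre11a, the nuclease of the MRN complex that senses broken ends, gave 1223 and 1573 units in the siKlf4 ES cells, against 687 and 698 in the reference (1.02 ± 0.098, 2.03-fold, adjusted p = 2.21e-05). In both genes the siKlf4 ES cell signals exceeded both reference signals before normalisation. The other MRN subunits, the Rad50 ATPase and Nbn, had ratios of 0.20 ± 0.017 and 0.17 ± 0.062. Brca1, a ubiquitin ligase that directs breaks into recombination, was called at 0.80 ± 0.066 with 900 and 1043 units in the siKlf4 ES cells, against 519 and 569 in the reference, while its obligate partner Bard1 stood at 0.00 ± 0.023. The Blm helicase was called at 0.70 ± 0.11 and the related Wrn helicase stood at -0.19 ± 0.090. Brca2, a recombination mediator, was at 0.22 ± 0.050 with 336 and 436 units in the siKlf4 ES cells, against 218 and 294 in the reference. The genes that assist strand exchange did not reach the limit. Xrcc2 stood at 0.41, Rad51d at -0.02, Rad51b at -0.07, Rad51c at -0.21 and Xrcc3 at -0.22. The last pair was dim in the siKlf4 ES cells, and Xrcc3 also in the reference on array 2, at 49.2 units. With the signal raised to the control limit, the fitted bound for Rad51c was 1.07-fold toward the reference, and no fold could be given for Xrcc3. That bound is inside the range of the control spots, so no difference is shown for Rad51c. Rad54l and Rad52 stood at 0.36 and 0.22.

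In the Fanconi anaemia pathway 2 of 6 measured genes were called higher, beside 12.1% of all probes. Fancm, a DNA translocase that anchors the pathway at stalled forks, gave 329 and 412 units in the siKlf4 ES cells, against 73.4 and 102 in the reference (log2 ratio 1.26 ± 0.021, 2.40-fold, adjusted p = 4.66e-06). Fancl, the ubiquitin ligase of the core complex, gave 1070 and 1456 units in the siKlf4 ES cells, against 531 and 564 in the reference (1.18 ± 0.13, 2.27-fold, adjusted p = 2.05e-05). Before normalisation both genes had higher signals in the siKlf4 ES cells on either array, without overlap. The core complex genes Fancc, Fancb and Fanca had ratios of 0.37, 0.12 and -0.07, and the helicase gene Brip1 stood at -0.14. Without background correction the ratio of Fancm was 0.45.

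Among checkpoint genes 4 of 6 measured members were called higher, beside 12.1% of all probes. Chek1, the kinase that answers stalled replication, gave 654 and 842 units in the siKlf4 ES cells, against 192 and 189 in the reference (log2 ratio 1.65 ± 0.18, 3.15-fold, adjusted p = 1.26e-05). Chek2, the kinase that answers broken ends, gave 1220 and 1337 units in the siKlf4 ES cells, against 455 and 444 in the reference (1.48 ± 0.022, 2.78-fold, adjusted p = 2.88e-06). Signals of both kinases were separate between siKlf4 ES cells and reference before normalisation. Rad1, a subunit of the sliding clamp that activates Atr, was called at 1.04 ± 0.026 and Rad17, which loads that clamp, at 0.72 ± 0.11. The clamp subunit Rad9a stood at 0.03 ± 0.016. Atm, the kinase upstream of Chek2, gave 592 and 757 units in the siKlf4 ES cells, against 564 and 726 in the reference, and its log2 ratios of 0.07 and -0.07 had opposite signs on the arrays.

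Of the nucleotide excision genes among the 57, 1 of 8 was called higher, a share of 12.5% beside 12.1% of all probes and 15.8% of named genes. Their median log2 ratio was 0.04. The 9 measured nucleotide excision genes outside the symbol families had a median of 0.93. Ercc2, the XPD helicase of the transcription factor TFIIH, gave 618 and 745 units in the siKlf4 ES cells, against 380 and 406 in the reference (0.65 ± 0.021, adjusted p = 4.77e-05). The other TFIIH helicase, Ercc3 or XPB, was at 0.13, and the nucleases Ercc4 (XPF), Ercc5 (XPG) and Ercc1, the partner of XPF, were at 0.16, 0.04 and -0.16. Ercc8, needed for repair of transcribed strands, stood at 0.03. Xpa, which verifies the lesion, was the lowest gene of the 57 that was not dim, with 1008 and 1365 units in the siKlf4 ES cells, against 1530 and 1548 in the reference. Its ratio of -0.35 ± 0.15 did not reach the limit. Of the genes that the symbols take in without a place in one route, the cohesin subunit Rad21 stood at -0.05 ± 0.23 and the helicase-like gene Rad54l2 at -0.03.

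**Figure D2:**
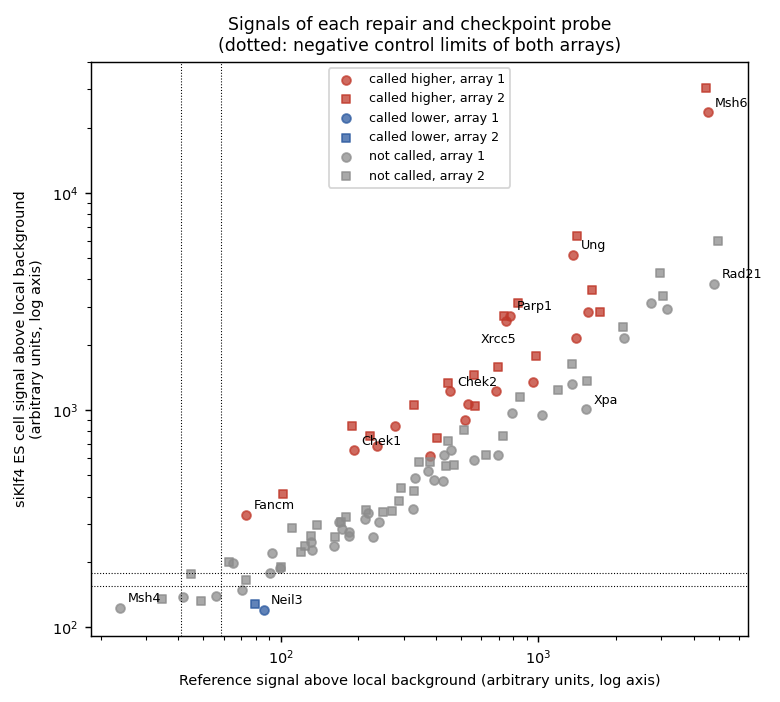
Signal above local background in siKlf4 ES cells (y axis) against that in reference RNA (x axis), in arbitrary units on log axes, for 53 of the 57 probes on array 1 (circles) and array 2 (squares). Genes called higher (red) sit above the band of genes not called (grey), and dotted lines mark the control limits. Neil3, Msh4, Pms1, Rad51c and Xrcc3 lie under these limits in the siKlf4 ES cells.

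Where both signals lay near the control limits, a difference from the reference was not detectable at this signal strength. Of the 34 genes not called and not dim, 17 passed the test on p and sign alone as higher and 4 as lower, with log2 ratios between -0.35 and 0.51. By that rule 36 of all 57 genes passed as higher and 7 as lower, against 31.6% and 31.4% of all probes. Those shares of all probes include called ones, so they are no like base for the 34. Control spots passed that rule too, 115 of 161, so these smaller values are given as levels only. The arrays differed by a median of 0.07 in log2 ratio over the 57 genes, against 0.06 over all probes. The widest gaps were those of Rad21 (0.33), Pms1 (0.32, a dim probe) and Chek1 (0.25).

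Genes of the same routes outside the symbol families were also counted, 64 measured of 80 listed. Of these, 29 were called higher and 1 lower, beside 12.1% and 10.8% of all probes, and their median log2 ratio was 0.41. With median centring in place of loess 18 were called higher. In recombination, the single-strand binding proteins Rpa2 (1.46) and Rpa1 (0.99) and the nuclease subunit Eme1 (1.25) were called higher. All 5 measured genes listed for the resynthesis step of mismatch repair were called higher, led by the clamp loader subunit Rfc1 (0.97) and the ligase Lig1 (0.92). Rfc4 stood at 0.66 and the lowest of the 5 at 0.59, near the limit of 0.52, and none was 2-fold higher. In nucleotide excision 7 of 9 were called higher, among them the TFIIH subunits Gtf2h1 (1.36) and Cdk7 (1.22) and the damage-binding subunit Ddb1 (1.31). In base excision the poly(ADP-ribose) hydrolase Parg (1.36), the flap nuclease Fen1 (1.13) and the glycosylase Mbd4 (0.66) were called. Among checkpoint genes Tipin, which stabilises stalled forks, stood at 2.00 ± 0.15 and the inhibitory kinase Wee1 at 1.31 ± 0.22, and the CDK inhibitor Cdkn1a was the 1 gene called lower (-1.63 ± 0.051). In translesion synthesis and direct reversal the ubiquitin conjugase Ube2a (1.39), the polymerase Rev1 (1.21) and the demethylase Alkbh2 (1.13) were called. None of the 3 Fanconi and 3 end joining genes measured was called, although Ube2t (0.42) and Wdr48 (0.18) passed on p and sign as higher and Polm (-0.27) as lower.

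Markers of dividing cells were higher beside the repair genes. Of 12 measured S phase and mitosis genes, 10 were called higher, with a median log2 ratio of 1.24, and their summed signals were 49631 and 62011 units in the siKlf4 ES cells, against 22926 and 24552 in the reference. Their part in the repair gene values was not tested. In bulk RNA a different share of cells in S phase and a different amount of RNA per cell cannot be told apart. Markers of fibroblasts, called lower in 5 of 6 cases, had summed signals of 5203 and 6307 units in the siKlf4 ES cells, against 67290 and 64873 in the reference. Vim, an intermediate filament gene, made up most of that sum, with 3904 and 4864 units in the siKlf4 ES cells, against 59637 and 57306 in the reference. Lum was not called (-0.32). Thy1 was called lower after normalisation (-0.56), although its signals before it were 165 and 175 units in the siKlf4 ES cells, against 132 and 119.6 in the reference.

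**Figure D3:**
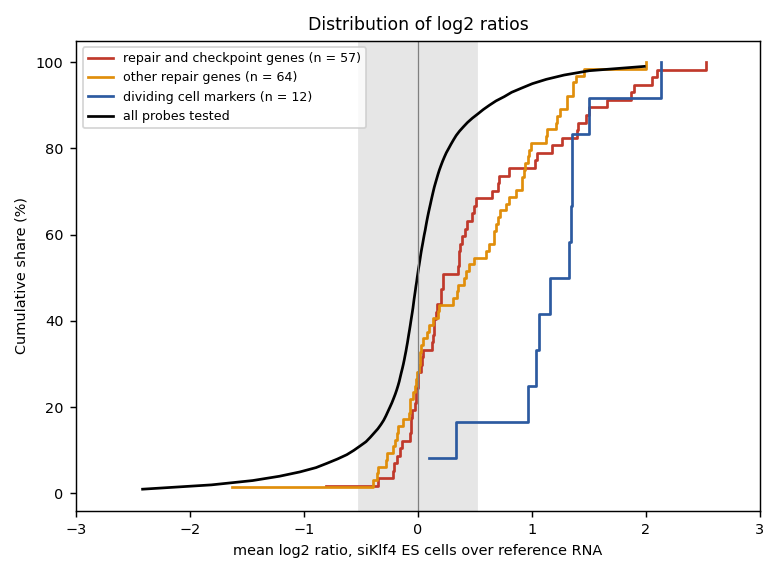
Cumulative share of genes or probes (y axis, percent) by mean log2 ratio of siKlf4 ES cells over reference (x axis) for the 57 repair and checkpoint genes, 64 other repair genes, 12 dividing cell markers and all 21028 probes. The grey band is the negative control range, and the repair genes run to the right of all probes, with medians of 0.22 and -0.01.

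Promoters were searched on both strands, over the 250 bases before the RefSeq gene start, for E2F elements, bound by factors of S phase entry, for the cell cycle element TTTGAA and for the CCAAT box. A RefSeq promoter (GRCm38.p6) was matched for 42 of the 57 genes. The E2F element TTTCCCGC was found in 5 of them, Chek2, Brca2, Bard1, Xrcc6 and Msh5, and in 1.03% of 27025 genes with a promoter, while TTTGGCGC and TTTCGCGC were found in 0 of the 42. Only Chek2 of these 5 was among the 14 genes called higher with a promoter. CCAAT was found in 8 of those 14 and in 18 of the other 28, against 37.5% of all genes, and TTTGAA in 3 of the 42, against 18.3%. The sequences before Chek2 (chr5:110839733-110839982, plus strand, log2 ratio 1.48) and Xrcc6 (chr15:82016119-82016368, plus strand, 0.43) are shown because they hold the same element beside different ratios. Capitals mark the E2F element, here as its reverse complement, and CCAAT boxes on either strand.
Chek2: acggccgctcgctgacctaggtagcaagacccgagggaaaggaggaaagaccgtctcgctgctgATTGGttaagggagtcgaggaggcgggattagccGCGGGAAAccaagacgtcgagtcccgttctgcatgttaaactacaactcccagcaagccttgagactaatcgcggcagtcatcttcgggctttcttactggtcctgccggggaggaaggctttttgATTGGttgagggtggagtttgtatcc
Xrcc6: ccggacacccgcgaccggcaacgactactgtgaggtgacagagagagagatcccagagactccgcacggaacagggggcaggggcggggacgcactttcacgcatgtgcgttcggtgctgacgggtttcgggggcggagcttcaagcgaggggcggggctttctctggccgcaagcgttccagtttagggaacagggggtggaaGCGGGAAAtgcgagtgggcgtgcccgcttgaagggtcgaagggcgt

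The calls were compared between ways of processing the arrays. Of the 19 called genes, 14 kept their call under the 8 alternatives of processing that allow a test. These 8 are not independent checks. Kept outlier spots, a trended prior and probes above the control limit use the main ratios and the main limit on size. The deposited series table nearly repeats the ratios of the scanner software's processed signals and takes their limit. Brca1, Blm, Rad17 and Ercc2, and Neil3, lost it with median centring in place of loess, where the control spots reached 0.74, and Blm, Rad17 and Ercc2 also with a smaller normexp offset, where they reached 0.80. Msh6 ranged from 2.47 to 2.52 and Ung from 1.84 to 2.09. Neil3, a dim probe, kept its call at -1.24 with the smaller offset, beyond 2-fold, and stood at -0.18 without background correction. Without background correction 30 genes were called higher and the median was 0.13, and ratios moved to 0.85 for Chek1, 0.74 for Prkdc and 0.90 for Exo1, which kept their call against control spots that then reached 0.099.

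**Figure D4:**
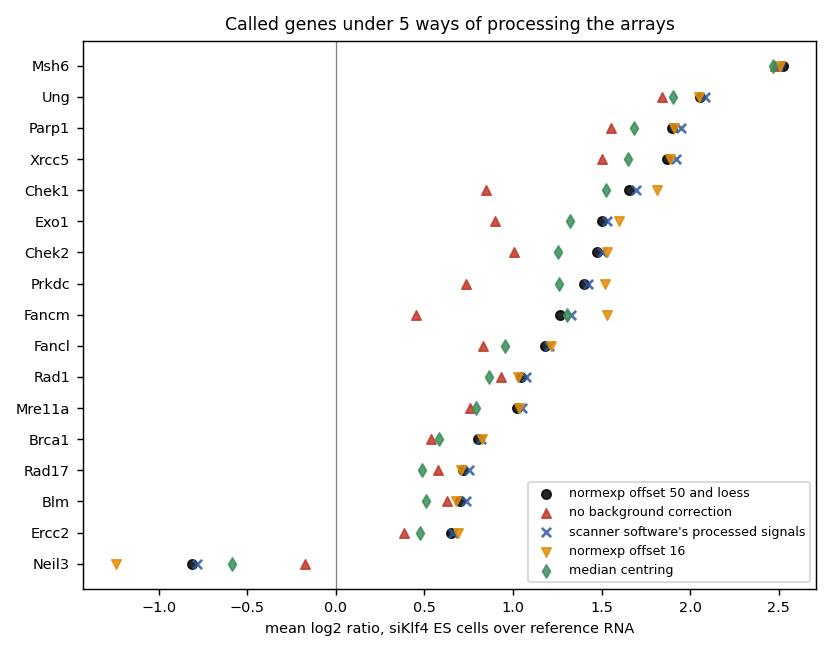
Mean log2 ratio of siKlf4 ES cells over reference (x axis) for 17 of the 19 called genes (y axis) under 5 ways of processing the arrays, one symbol each. Msh6 keeps nearly the same place under all 5, while Chek1, Prkdc, Exo1 and Fancm move toward 0 without background correction.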

How the data were processed

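RNA from siKlf4 EB5 ES cells (Cy3) and reference RNA (Cy5) was measured on 2 arrays. The files were written by Agilent Feature Extraction (A.7.5.1). Per the file headers, the authors' intensity values are the raw signals of spots and of their surroundings, and processed signals, from which that software had subtracted the surroundings and removed dye bias by LOWESS. The deposited log10 ratio is that of red over green processed signal, with a largest difference over gene probes of 0.134 on array 1 and 3.97e-07 on array 2. How the deposited series table (log10 values) was made is not stated; within 0.0002, 99.6% of its values on each array equal the mean log10 red processed signal minus the array's log10 ratio.

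Background was corrected by normexp (offset 50) on the mean signals and each array normalised by loess, control spots having weight 0 (limma 3.58.1, R 4.3.3). Outlier spots were left out (24 probes), which left 21028. Mean log2 ratios were tested against 0 with lmFit and eBayes, adjusted by Benjamini-Hochberg over all probes; the filter on signals well above background was not used because the software flagged 100% of the control spots as such for ES cell RNA, so the control spots' 95th percentile served instead. Accessions of 10418 probes gave 1 symbol and 10634 gave none, from a RefSeq table used for names; the brightest probe stood for a gene. The test on p and sign, without the limit on size, was run on simulated data in which unchanged probes had no dye effect. It recovered 11.5% of changes of 0.25 in log2 ratio and 96.0% of changes of 0.5, and 6.51% of its calls were false. It therefore checks neither the limit on size nor the shifts seen in the control spots. Both arrays have the same dye orientation, so a dye effect stays in each ratio, and 2 arrays limit the precision. The members, the gene lists, the call rule and the rule for named genes were chosen with earlier results of these data known. By that rule Klf4, Pou5f1 and Sox2 were named, with Brca1, Brca2, Atm, Chek1 and Chek2, and members called at 2-fold or more. It also took the highest and lowest gene of each route and the 3 genes that differed most between arrays. Outside the families it took up to 3 called genes of each route. The remaining members were named to account for each. Of all members, 4 genes, 2 of them called, stay in the counts but are not reported here by name. Alternatives are listed with their effect in the closing section.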

Additional observations from a re-analysis of the deposited data

How the results depend on the processing

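No paired analysis was possible because both arrays form 1 group. Beyond every negative control spot, 2552 probes were called higher and 2273 lower, with 4149 and 3883 without background correction, 6654 and 6612 by adjusted p and sign only, and 1068 and 1092 at 2-fold or more. The higher count was 1701 with a normexp offset of 16 and 1424 with median centring. Of the repair and checkpoint genes, 30 were called higher and 2 lower without background correction, where the control limit was lower, and 36 and 7 by p and sign only. The 1 lower call, Neil3, became 0 with median centring (-0.59, limma, adjusted p = 1.66e-05, inside the wider range of the control spots), at 2-fold or more, and among probes above the control limit, which leave Neil3 out by construction. Their median log2 ratio of 0.22 was 0.13 without background correction, 0.28 with offset 16, 0.36 among probes above the control limit, and 0.26 to 0.34 with either array left out, where no test can be made. Of the other repair genes, 18 were called higher with median centring and 12 at 2-fold or more, 8 were called lower without background correction and 11 by p and sign only, and their median was 0.20 without background correction and 0.35 to 0.43 with either array left out. The cause of these shifts was not tested. The scanner software's processed signals, the deposited series table, a trended prior, and kept outlier spots changed no call among the 57 genes. Dim probes limit what can be seen: 5 of the 57 were at or under the control limit in the ES channel on both arrays.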
